A study of Mus musculus with 2 samples.

Results

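Fc receptors are the cell surface proteins that bind the constant part of antibodies. The 7 genes described here are the activating IgG receptors Fcgr1, Fcgr3 and Fcgr4, their signalling chain Fcer1g, the inhibitory IgG receptor Fcgr2b, the IgE receptor chain Fcer1a and the neonatal Fc receptor Fcgrt. They were taken by their symbols from both count matrices, where all 7 of 7 were found among 31054 features. The cells came from mouse tumours grown in an allograft model of pancreatic ductal adenocarcinoma (PDAC). Both groups of cells came from hosts of the genotype p16-CreERT2/R26-LSL-tdTomato, in which a Cre recombinase expressed with p16, an inhibitor of the cell cycle, switches on the red protein tdTomato. The Tom positive group held sorted stromal cells with tdTomato and the Tom negative group sorted stromal cells without it, with 1 single-cell library in each group. The age and number of the hosts, the tumour line, and the drug and time used to activate the recombinase are not given in the sources used here. After perfusion with PBS and digestion, the cells were treated with a reagent that blocks Fc receptors before they were stained and sorted, per the labels' protocols.

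As background, an activating Fc receptor bound by antibody-coated particles signals through the paired FcR gamma chain, encoded by Fcer1g, and the kinase Syk, and this drives phagocytosis and killing of coated cells. Fcgr2b carries an inhibitory motif in its own tail and opposes those signals, so the balance of activating and inhibitory receptors on macrophages sets how they respond to antibody. Fcer1a, with Ms4a2 and Fcer1g, forms the high-affinity IgE receptor of mast cells and basophils. Fcgrt, which pairs with beta-2 microglobulin, acts inside endosomes and recycles IgG and albumin in endothelium and macrophages.

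The promoters of 5 members are shown because these genes had unlike patterns over cell types: a receptor of macrophages, one of macrophages and neutrophils, the inhibitory receptor, the mast cell receptor and the broadly expressed recycling receptor. Each sequence runs 5′ to 3′ on the gene's strand over 300 bases around the annotated start, from RefSeq on build GRCm38.p6. Capitals mark matches on either strand to 3 short motifs. The letters GAGGAA are a core bound by the myeloid factor PU.1. The letters AGATAA are a core bound by GATA factors, which act in mast cells. The letters TTCNNNGAA are a core bound by STAT factors, which act downstream of interferon.
Fcgr1, chr3:96293920-96294219, minus strand: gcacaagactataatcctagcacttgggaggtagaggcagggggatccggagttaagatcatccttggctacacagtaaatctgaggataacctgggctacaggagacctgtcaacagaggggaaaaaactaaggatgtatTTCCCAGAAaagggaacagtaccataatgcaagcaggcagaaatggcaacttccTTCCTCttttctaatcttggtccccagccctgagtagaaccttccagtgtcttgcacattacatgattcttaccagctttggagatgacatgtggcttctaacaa
Fcgr3, chr1:171059354-171059653, minus strand: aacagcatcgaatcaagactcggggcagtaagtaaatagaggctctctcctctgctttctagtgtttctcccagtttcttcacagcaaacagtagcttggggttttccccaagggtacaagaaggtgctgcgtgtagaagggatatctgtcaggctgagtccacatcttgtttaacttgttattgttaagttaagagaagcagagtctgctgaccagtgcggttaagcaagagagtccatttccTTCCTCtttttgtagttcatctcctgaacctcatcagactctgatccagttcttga
Fcgr2b, chr1:170976022-170976321, minus strand: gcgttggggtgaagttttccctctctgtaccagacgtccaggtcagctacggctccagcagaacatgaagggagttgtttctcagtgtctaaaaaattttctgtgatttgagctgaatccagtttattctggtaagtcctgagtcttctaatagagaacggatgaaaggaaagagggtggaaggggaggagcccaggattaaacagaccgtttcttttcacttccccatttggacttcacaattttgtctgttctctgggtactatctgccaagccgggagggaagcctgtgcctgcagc
Fcer1a, chr1:173227180-173227479, minus strand: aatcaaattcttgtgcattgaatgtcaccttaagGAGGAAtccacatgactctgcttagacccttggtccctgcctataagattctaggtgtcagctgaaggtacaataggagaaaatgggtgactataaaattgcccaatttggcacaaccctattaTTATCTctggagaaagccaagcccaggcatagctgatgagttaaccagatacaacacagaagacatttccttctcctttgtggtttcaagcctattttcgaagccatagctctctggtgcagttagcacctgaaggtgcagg
Fcgrt, chr7:45103773-45104072, minus strand: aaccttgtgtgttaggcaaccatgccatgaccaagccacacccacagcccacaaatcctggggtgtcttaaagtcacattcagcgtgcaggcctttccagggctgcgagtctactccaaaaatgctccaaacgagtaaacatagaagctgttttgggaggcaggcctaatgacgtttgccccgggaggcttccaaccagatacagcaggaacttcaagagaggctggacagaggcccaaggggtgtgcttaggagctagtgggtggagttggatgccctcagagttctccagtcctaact

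All 7 genes matched the RefSeq table, Fcgr3 with 2 entries, which gave 8 promoters. The PU.1-type motif was in 5 of the 8, those of Fcgr1, Fcgr3 (both entries), Fcgr4 and Fcer1a, and in 28.3% of 32851 mouse promoters of the same length. The GATA motif was in the promoter of Fcer1a alone among the members, and in 11.2% of all promoters. The STAT motif was in the promoter of Fcgr1 alone among the members, and in 8.30% of all. Fcgr2b, Fcer1g and Fcgrt held none of the 3 motifs in this window. A match is a description of the letters, not a bound site. In the mm10 annotation 5 of the members lie on chromosome 1, with Fcgr2b, Fcgr4, Fcgr3 and Fcer1g within chr1:170958617-171234365 and Fcer1a at chr1:173221284-173227214. Fcgr1 lies at chr3:96282909-96293969 and Fcgrt at chr7:45092990-45103851.

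The Tom positive matrix held 4302 cells after filtering and the Tom negative matrix 6580, with medians of 24191 and 20610.5 unique molecular identifiers (UMIs, one per captured RNA molecule) per cell. Cells were clustered anew because no deposited annotation was used, and clusters were called X-like only from fixed marker genes, otherwise by their leading genes. Levels are CPM, a gene's UMIs scaled to the total UMIs summed over a population's cells in a library. Intervals are exact 95% intervals that cover counting error only. With 1 library in each group no difference has a replicate check, and no p-value is given. A gene was called past 1.5-fold when the CPM of the libraries differed by at least that much, among genes at 10 CPM or more in 1 of them. The libraries share 3660 cell barcodes; 234 Tom positive and 1233 Tom negative kept cells were doubted because the other library held the same barcode with far more UMIs or both held it with few. These doubted cells were mostly shallow barcodes, and 1 Tom positive and 12 Tom negative of them were macrophage-like.

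The IgG receptors were genes of macrophage, monocyte, dendritic and neutrophil populations in both libraries. Macrophage-like cells numbered 386 Tom positive and 334 Tom negative, and each of the 11 macrophage markers reached 50 CPM in at least 1 library. The other phagocyte populations were cells led by Nos2 and Mmp12 (347 and 334), cells led by Retnla and Ear2 (102 and 216), monocyte-type cells led by Chil3 and F13a1 (339 and 421) and dendritic-like cells led by Ccl17 and Mgl2 (216 and 574). Neutrophil-like cells numbered 289 and 540, and mast-like cells 30 and 1. Fibroblast-like cells, which are not known to carry IgG receptors, served as a low reference. Whether their UMIs of these genes came from free RNA in the suspension was not tested.

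**Figure D1:**
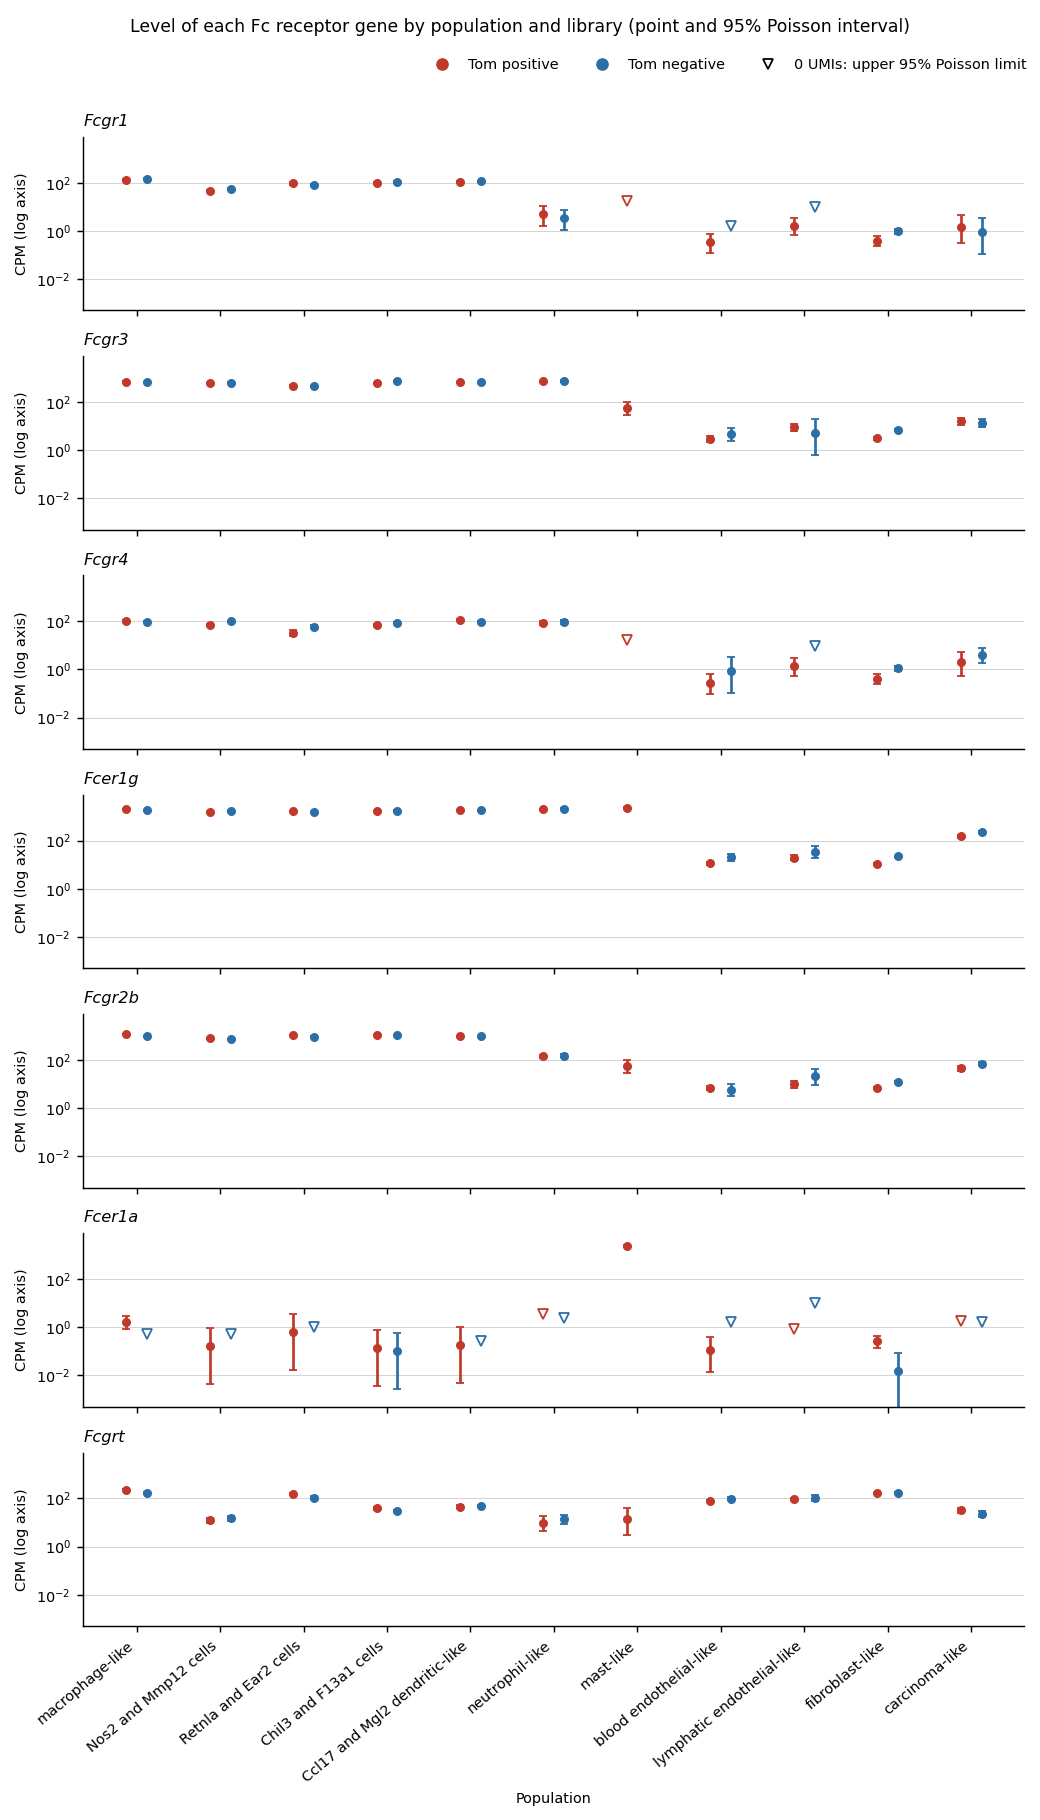
Level of each Fc receptor gene (CPM, log axis) by population, with Tom positive and Tom negative libraries as separate points, 95% Poisson intervals as bars and open triangles at the upper limit where no UMI was found; the single Tom negative mast-like cell is not drawn. Fcgr1, Fcgr3, Fcgr4 and Fcgr2b sit high in the phagocyte populations, Fcer1g also in mast-like cells, Fcer1a in mast-like cells, and Fcgrt in fibroblast-like, endothelial and macrophage-like cells.

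Fcgr1, the high-affinity IgG receptor of monocytes and macrophages, separated macrophages from neutrophils. In macrophage-like cells it stood at 131 CPM (95% interval 123 to 139) for Tom positive and 150 CPM for Tom negative cells. Dendritic-like cells led by Ccl17 and Mgl2 followed at 113 and 117 CPM, and the Chil3 and F13a1 cells at 95.5 and 106 CPM. The Retnla and Ear2 cells stood at 95.3 and 80.0 CPM, with an interval in Tom positive that overlapped those of both of these neighbours. The Nos2 and Mmp12 cells had the lowest Fcgr1 of the 5 phagocyte populations, at 45.4 CPM for Tom positive and 53.9 CPM for Tom negative cells.

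Neutrophil-like cells held only 5 Fcgr1 UMIs in each library, or 4.83 and 3.30 CPM. After each cell was thinned to 2000 UMIs, an Fcgr1 UMI was found in 0.769% (Tom positive) and 0.44% (Tom negative) of neutrophil-like cells, against 20.5% and 24.4% of macrophage-like cells. In fibroblast-like cells the thinned share was 0% in Tom positive and 0.111% in Tom negative, with median depths of 38364 and 35134 UMIs against 3564 and 2725 in neutrophil-like cells. Fcgr1 stood at 0.387 and 0.982 CPM in fibroblast-like cells, below the neutrophil-like values. It was thus far lower in neutrophil-like than in macrophage-like cells, and whether the neutrophil-like UMIs came from free RNA was not tested. The macrophage gene C1qa stood at 13.5 and 40.3 CPM in the same neutrophil-like cells. None of the 30 Tom positive mast-like cells had an Fcgr1 UMI, and their total depth puts the floor of 3 counts at 14.2 CPM.

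Fcgr3, the low-affinity activating receptor, stood at a like level in neutrophil-like and macrophage-like cells. Neutrophil-like cells stood at 718 CPM (667 to 771) for Tom positive and 743 CPM for Tom negative cells (701 to 788). Macrophage-like cells stood at 706 and 677 CPM, within the interval of the neutrophil-like cells in Tom positive and below it in Tom negative. The remaining phagocytes ranged from 462 CPM in Tom negative Retnla and Ear2 cells to 718 CPM in Tom negative Chil3 and F13a1 cells. In both libraries the Retnla and Ear2 cells were the lowest of the phagocytes, and their intervals did not overlap those of the other populations.

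Thinned shares gave the same picture: 65.4% and 65.7% of neutrophil-like cells and 56.5% to 73.8% of cells in the 5 phagocyte populations had an Fcgr3 UMI. Only 1.014% and 1.003% of fibroblast-like cells did. Small populations outside the phagocytes were low, with 56.9 CPM in Tom positive mast-like cells from 12 UMIs and 15.3 CPM in the 23 migratory dendritic-like cells of Tom negative from 7 UMIs. Migratory dendritic cells, which carry antigen to lymph nodes, therefore stood far below the Ccl17 and Mgl2 cells at 671 and 665 CPM.

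Fcgr4, an activating receptor for IgG2a and IgG2b, was found at a lower UMI level in the same populations. It stood at 106 and 96.8 CPM in macrophage-like cells, 110 and 98.02 CPM in the Ccl17 and Mgl2 cells and 84.1 and 95.2 CPM in neutrophil-like cells. The intervals of these 3 populations overlapped in each library. Retnla and Ear2 cells were lowest again, with 32.9 CPM (24.4 to 43.3, 50 UMIs) for Tom positive and 59.7 CPM for Tom negative cells (51.9 to 68.4, 209 UMIs). Unlike Fcgr1, Fcgr4 was thus shared by macrophage-like and neutrophil-like cells, with thinned shares of 16.9% and 16.3% in the latter and 0.078% and 0.167% in fibroblast-like cells.

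Fcer1g, the FcR gamma chain that the activating receptors need, had the highest level, in 3′ tag counts, of the members in phagocytes and neutrophils. It stood at 2026 CPM for Tom positive and 1919 CPM for Tom negative cells macrophage-like cells. Neutrophil-like cells reached 1991 CPM (1906 to 2079) and 2099 CPM (2027 to 2173), and the 30 Tom positive mast-like cells 2217 CPM (2021 to 2428). The intervals of mast-like, macrophage-like and neutrophil-like cells overlapped in Tom positive. Every one of the 30 mast-like cells held an Fcer1g UMI, as did 99.2% and 99.4% of macrophage-like cells before thinning. The other 4 phagocyte populations lay between 1553 and 1866 CPM.

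Outside the myeloid and mast populations, Fcer1g had a clear level in T or NK-like cells, where natural killer cells use it with CD16. There it stood at 502 CPM (36 cells, 171 UMIs) for Tom positive and 166 CPM for Tom negative cells (14 cells, 30 UMIs), and 32.4% of thinned Tom positive cells had a UMI. Fcgr3, which encodes mouse CD16, stood at 8.80 and 16.6 CPM there, from 3 UMIs in each library. The 11 macrophage markers together came to 64.6 and 138 CPM in these cells. Carcinoma-like cells held 149 and 234 CPM of Fcer1g, beside 127 and 237 CPM of the macrophage gene Cd68. Their thinned Fcer1g shares were 28.9% and 31.03%, against 1.79% and 3.79% in fibroblast-like cells. Whether macrophage RNA or attached macrophages account for the carcinoma-like values was not tested.

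Fcgr2b, the inhibitory receptor, was abundant in every phagocyte population and low in neutrophils. Macrophage-like cells stood at 1156 CPM (1132 to 1180) for Tom positive and 973 CPM for Tom negative cells (950 to 997). The Chil3 and F13a1 cells stood at 1097 and 1030 CPM, the Retnla and Ear2 cells at 1037 and 928 CPM, and the Ccl17 and Mgl2 cells at 960 and 947 CPM. The Nos2 and Mmp12 cells were the lowest of the phagocytes, at 779 and 738 CPM, and their intervals overlapped no other phagocyte population. Neutrophil-like cells stood at 142 CPM (120 to 167) and 148 CPM (129 to 169), beside the 13.5 and 40.3 CPM of C1qa given above.

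Thinned shares of cells with an Fcgr2b UMI were 74.2% to 88.6% in phagocytes, 23.5% and 22.6% in neutrophil-like cells and 1.09% and 2.40% in fibroblast-like cells. Neutrophil-like cells held far less than any phagocyte population. Their share is not set against the fibroblast-like one as a level of expression, since their median depths were 3564 and 2725 UMIs against 38364 and 35134. The 289 and 540 neutrophil-like cells held 147 and 224 Fcgr2b UMIs in all, and the 1300 and 1895 fibroblast-like cells held 341 and 818. Blood endothelial-like cells held 6.65 and 5.70 CPM of Fcgr2b, at or below the 6.95 and 12.5 CPM of fibroblast-like cells, although the sinusoidal endothelium of the liver is a known site of this receptor.

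The ratio of activating Fcgr3 to inhibitory Fcgr2b UMIs was higher in neutrophils than in macrophages. Counts of 3′ tags need no division by gene length, but capture can differ between genes, so the ratio is read between populations and not as a ratio of proteins. Neutrophil-like cells held 5.05 Fcgr3 UMIs per Fcgr2b UMI in Tom positive (4.23 to 6.07) and 5.02 in Tom negative (4.35 to 5.82). Macrophage-like cells held 0.611 (0.591 to 0.632) and 0.696 (0.670 to 0.723).

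Among the other phagocytes the ratio ran from 0.456 in Tom positive Retnla and Ear2 cells to 0.855 in Tom negative Nos2 and Mmp12 cells, so it stayed below 1 in all 5 populations of both libraries. Migratory dendritic-like cells of Tom negative had 7 Fcgr3 and 84 Fcgr2b UMIs, a ratio of 0.0833 (0.0325 to 0.179), the lowest of the myeloid populations. Fcer1g stood at 2.77 and 2.82 UMIs per Fcgr3 UMI in neutrophil-like cells, inside the range of 2.44 to 3.44 in the 5 phagocyte populations. Neutrophil-like and macrophage-like cells thus differed in Fcgr2b, with Fcgr3 and Fcer1g at like levels.

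**Figure D2:**
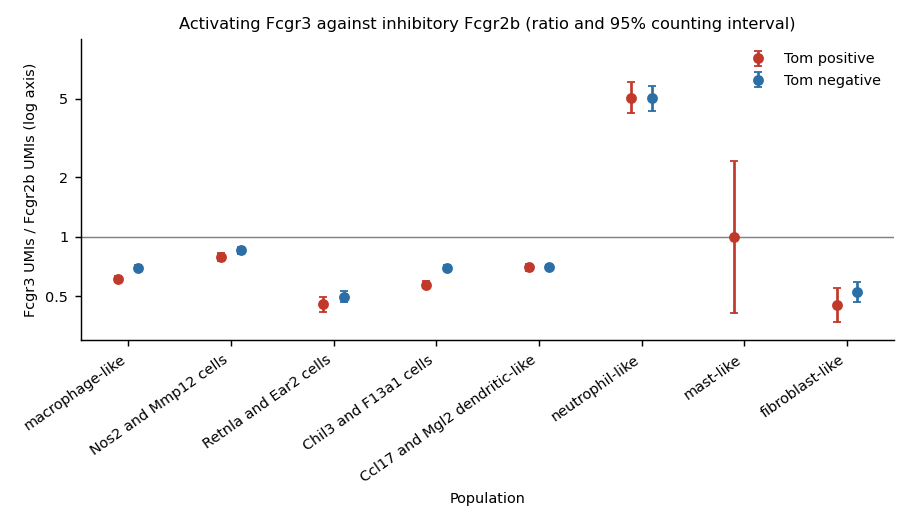
Fcgr3 UMIs per Fcgr2b UMI (log axis) in each population and library, with exact 95% intervals as bars and a line at 1. Neutrophil-like cells sit at 5.05 and 5.02, above the line, and the 5 phagocyte populations between 0.456 and 0.855, below it.

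Single cells gave the same contrast. Among thinned macrophage-like cells, 52.9% in Tom positive and 57.9% in Tom negative held UMIs of both receptors, and 33.2% and 25% held Fcgr2b alone. Among thinned neutrophil-like cells, 15.8% and 14.5% held both, while 49.6% and 51.2% held Fcgr3 alone. The shares with both were close to the products of the single shares, 52.7% and 56.4% in macrophage-like and 15.3% and 14.9% in neutrophil-like cells, so at this depth the cells did not split into Fcgr3 cells and Fcgr2b cells.

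Fcer1a marked mast-like cells. The 30 Tom positive mast-like cells held 521 of the 553 Fcer1a UMIs of that library, 2468 CPM (2261 to 2690), and all 30 held at least 1. The single Tom negative mast-like cell held 15 of the 21 Fcer1a UMIs of its library. Over all kept cells the level was 4.72 CPM for Tom positive and 0.139 CPM for Tom negative cells, beside 30 and 1 mast-like cells. With 1 such cell in Tom negative, no level within mast-like cells can be compared, and fewer cells of a type and less RNA per cell cannot be told apart in the sum over all cells.

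Elsewhere the gene was almost absent from the counts. Neutrophil-like cells held no Fcer1a UMI in either library, which allows up to 3.56 CPM for Tom positive and 2.44 CPM for Tom negative cells at the upper 95% limit. Macrophage-like cells of Tom positive held 13 UMIs, all in 1 cell. Fibroblast-like cells of Tom positive held 13 UMIs spread over 13 cells, and those of Tom negative 1. Mast cell granule genes and the receptor's beta chain shared the pattern: by the ratio of the mast-like level to the highest other level, over both libraries, the leading genes included Gm17019, the protease Mcpt4 (27576 CPM), the beta chain Ms4a2 (384 CPM) and the protease Cpa3. Fcer1a ranked 11, with 2420 CPM against at most 1.65 CPM in any other population. All 9 mast markers reached 50 CPM in these cells, and 4 of 5 basophil markers did in Tom positive, of which Gata2 and Ms4a2 are on both lists.

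Fcgrt, the recycling receptor for IgG and albumin, had a pattern of its own. It was high in fibroblast-like cells, at 163 CPM (159 to 167) for Tom positive and 175 CPM for Tom negative cells (172 to 179). The other IgG receptors stood there between 0.387 and 12.5 CPM. Blood endothelial-like cells, a known site of IgG recycling, held 80.7 CPM (76.5 to 85.0, 450 cells) and 97.0 CPM (84.6 to 111, 100 cells). Lymphatic endothelial-like cells held 97.0 CPM for Tom positive and 106 CPM for Tom negative cells, but 20 of the 32 Tom negative cells were doubted barcodes. Pericyte or smooth muscle-like cells held 126 and 101 CPM and the Tnc and Acta2 cells, a fibroblast population, 94.3 and 98.2 CPM.

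Among phagocytes Fcgrt divided the populations more than any IgG receptor did. Macrophage-like cells stood at 234 CPM (224 to 245) for Tom positive and 169 CPM for Tom negative cells (160 to 179), and Retnla and Ear2 cells at 152 and 109 CPM. The Ccl17 and Mgl2 cells stood at 46.0 and 49.6 CPM, while the Nos2 and Mmp12 cells held 12.3 and 14.8 CPM. Neutrophil-like cells held 9.66 CPM (10 UMIs) and 13.9 CPM (21 UMIs), overlapping the Nos2 and Mmp12 cells. Macrophage-like and Nos2 and Mmp12 cells, which had Fcgr3 within 616 to 706 CPM, thus differed by an order of magnitude in Fcgrt. The light chain partner B2m was high throughout, at 1610 and 1503 CPM in macrophage-like, 646 and 627 CPM in neutrophil-like, 896 and 818 CPM in blood endothelial-like and 344 and 375 CPM in fibroblast-like cells.

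Between the libraries the IgG receptors and Fcer1g of macrophage-like cells differed by less than 1.5-fold. None of 6 measured members passed that fold, where 3.99% of 8315 measured genes did, so the count is near that share and is no result about the members. The members' median log2 difference was 0.10 against -0.01 for all measured genes. Fcgr1 had a ratio of Tom positive to Tom negative of 0.873 (0.800 to 0.953), Fcgr3 1.04 (1.003 to 1.09), Fcgr4 1.10 (0.989 to 1.22) and Fcgr2b 1.19 (1.15 to 1.23). Fcgrt had the largest ratio of the 6, at 1.38 (1.29 to 1.49). It moved past 1.5-fold when cells were weighted equally, at 1.52, and when cells were thinned to 2000 UMIs, at 1.78.

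**Figure D3:**
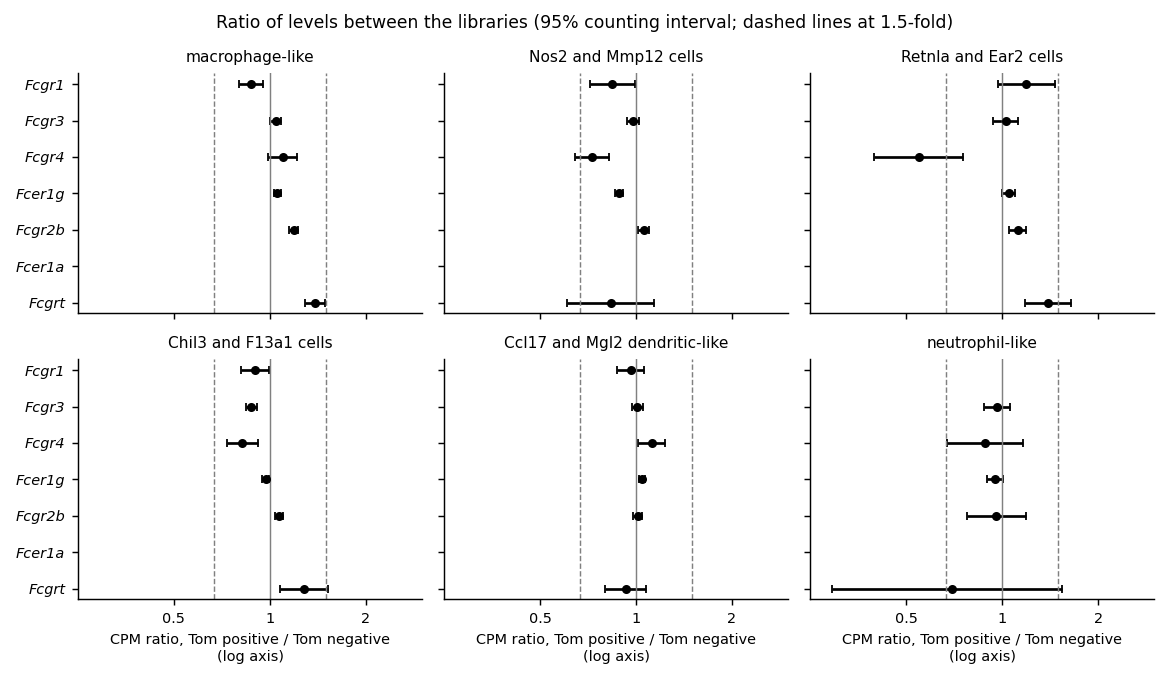
Ratio of Tom positive to Tom negative CPM (log axis) for each measured member in the 5 phagocyte populations and neutrophil-like cells, with exact 95% counting intervals as bars, a line at 1 and dashed lines at 1.5-fold either way. All points lie between the dashed lines except Fcgr4 in Retnla and Ear2 cells, at 0.550.

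In the Retnla and Ear2 cells 1 of 6 measured members passed 1.5-fold, where 10.3% of 8077 genes did and 5.55% were lower in Tom positive. It was Fcgr4, lower in Tom positive with a ratio of 0.550 (0.396 to 0.752). Before thinning, an Fcgr4 UMI was found in 29.4% (Tom positive) and 44.9% (Tom negative) of them. At 2000 UMIs per cell the shares were 9.78% and 14.5% and the log2 difference shrank from -0.84 to -0.56, which is inside 1.5-fold. Fcgrt in these cells had a ratio of 1.39 (1.18 to 1.64). It was smaller within the finer clusters described below. The ratio was 1.16 (0.984 to 1.37) in the one led by Clec4a1, Cbr2 and Mrc1. In the one led by Retnla, Ear2 and Lyz1 it was 1.19 (0.808 to 1.73), and both intervals hold 1. The part of the makeup of the cells in the pooled ratio was not tested.

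The remaining phagocytes had no member past 1.5-fold in 18 comparisons. The shares of all genes past it, given below, were low too, so this count is no result about the members. In the Nos2 and Mmp12 cells 0 of 6 passed (6.56% of 7743 genes), with Fcgr4 the farthest from 1 at 0.726 (0.642 to 0.821). At 2000 UMIs per cell 2 of those members passed, Fcgr1 at a ratio of 0.610 and Fcgrt at 0.544. In the Chil3 and F13a1 cells 0 of 6 passed (3.34% of 7916), with Fcgr4 at 0.819 (0.732 to 0.917), Fcgr3 at 0.875 (0.842 to 0.909) and Fcgrt at 1.28 (1.08 to 1.52). In the Ccl17 and Mgl2 cells 0 of 6 passed (2.68% of 8009), and all ratios lay between 0.929 and 1.12.

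In neutrophil-like cells the receptors differed little between the libraries when scaled by total UMIs, while many other genes differed. Of their 5 measured members 0 passed 1.5-fold, where 44.5% of 7761 genes did and 39.0% were higher in Tom positive. Fcgr3 had a ratio of 0.966 (0.879 to 1.06), Fcer1g 0.949 (0.897 to 1.003), Fcgr2b 0.959 (0.774 to 1.19) and Fcgr4 0.883 (0.669 to 1.16). The median log2 difference was -0.08 for the members and 0.40 for all measured genes, so relative to the middle of the genes the members were lower in Tom positive. Fcgrt, with 10 and 21 UMIs, had a ratio of 0.696 (0.293 to 1.54) and passed 1.5-fold when TMM factors replaced the totals, at 0.532. The same factors lowered the ratios of the other members too, but none of those passed. The makeup of the cells differed too: the neutrophil cluster with less S100a8 gave 118 of the 289 Tom positive and 71 of the 540 Tom negative cells. Siglecf, a gene of eosinophils and of some tumour neutrophils, stood there at 209 and 100 CPM. The part of this makeup in the members' ratios was examined only with each cluster on its own, where 0 members passed in the larger one and Fcgr1 alone, at 5 and 1 UMIs, in the other.

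In blood endothelial-like cells only 2 members were measured and 1 passed 1.5-fold, where 11.9% of 9035 genes did. Fcer1g, at 11.7 and 20.2 CPM, had a ratio of 0.579 (0.419 to 0.816), and Fcgrt had 0.832 (0.722 to 0.964). C1qa in these cells stood at 3.67 and 10.1 CPM and the 11 macrophage markers together at 220 and 171 CPM. Thinned Fcer1g shares were 2.0% and 5.15%, beside 1.79% and 3.79% in fibroblast-like cells. Whether these UMIs came from free RNA was not tested. In fibroblast-like cells 2 of 3 measured members were past 1.5-fold lower in Tom positive, where 1.85% of 8616 genes were and 2.84% passed in either direction. They were Fcer1g (10.8 and 22.0 CPM, ratio 0.493) and Fcgr2b (6.95 and 12.5 CPM, ratio 0.554). C1qa moved with them, at 6.26 and 14.2 CPM, and the 11 macrophage markers together came to 155 and 218 CPM; their part in the ratios was not tested. In carcinoma-like cells 2 of 4 members were past 1.5-fold lower, where 12.6% of 9277 genes were. They were Fcer1g (ratio 0.636) and Fcgr2b (ratio 0.639), beside summed macrophage markers of 583 and 983 CPM, and 23.1% of genes passed in either direction.

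The other populations add little. In the Tnc and Acta2 cells 0 of 4 measured members passed 1.5-fold (2.32% of 8703 genes). In pericyte or smooth muscle-like cells 1 of 4 did (18.4% of 9436 genes), Fcgr2b at 11.6 and 23.1 CPM from 13 and 97 UMIs. In lymphatic endothelial-like cells 2 of 3 did (32.0% of 9803 genes), Fcer1g and Fcgr2b, from 13 and 8 Tom negative UMIs in mostly doubted barcodes. Over all kept cells 0 of 6 measured members passed (7.73% of 9370 genes), with ratios between 0.816 for Fcgr1 and 0.994 for Fcgrt.

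A finer division of all cells, with Leiden at resolution 2, showed that populations with 1 mean level held cells of unlike receptor levels. The macrophage-like cells split into a cluster led by Ms4a7 and Pf4 (302 and 227 cells) and one led by Mmp9 and Ccl24 (53 and 74 cells). Fcgrt stood at 273 and 209 CPM in the first and 64.5 and 107 CPM in the second. Fcgr4 had the opposite order, at 87.1 and 70.2 CPM in the first and 178 and 152 CPM in the second. Fcgr2b followed Fcgrt, at 1268 and 1130 CPM against 795 and 731 CPM. The Fcgrt ratio between the libraries was 1.31 (1.20 to 1.42) in the first cluster and 0.603 (0.472 to 0.765) in the second, so its direction was not shared by both parts of the macrophage-like cells; these intervals do not overlap, but they rest on 1 library per group.

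The Retnla and Ear2 cells split as well. The cluster led by Clec4a1, Cbr2 and Mrc1 (68 and 106 cells) held 312 and 268 CPM of Fcgrt, and the one led by Retnla, Ear2 and Lyz1 (64 and 176 cells) held 36.3 and 30.4 CPM. Fcgr1 stood at 152 and 174 CPM in the first and 58.1 and 67.8 CPM in the second. Cbr2 and Mrc1 are genes of resident-type macrophages. Of the 174 cells of the first cluster 159 came from the Retnla and Ear2 cells, and of the 240 of the second 157 did. Fcgr4 stood at 49.4 and 122 CPM in the first and 20.9 and 32.4 CPM in the second, so here it was higher where Fcgrt was higher, unlike in the macrophage-like split. It was below Tom negative in both, with ratios of 0.405 (0.280 to 0.573) in the first and 0.643 (0.392 to 1.01) in the second.

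The Ccl17 and Mgl2 cells split into a cluster led by H2-Eb1 and Cd74 (143 and 265 cells) and one led by Ccl17 and Ccr7 (58 and 230 cells), Ccr7 being the homing receptor of migrating dendritic cells. Fcgr4 stood at 146 and 170 CPM in the first and 35.1 and 23.9 CPM in the second. Fcgr1 stood at 132 and 150 CPM against 66.1 and 65.3 CPM, and Fcgr3 at 724 and 768 CPM against 470 and 468 CPM. Fcer1g stood at 1963 and 1888 CPM in the first and 1636 and 1444 CPM in the second, and Fcgr2b at 925 and 904 CPM against 904 and 864 CPM. The cluster led by Ccl17 and Ccr7 thus held less of all 3 activating receptors and of Fcer1g, with Fcgr2b close to even, and the migratory dendritic-like cells, whose list of markers also holds Ccr7, had 327 CPM of Fcer1g and 183 CPM of Fcgr2b in the 23 Tom negative cells.

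**Figure D4:**
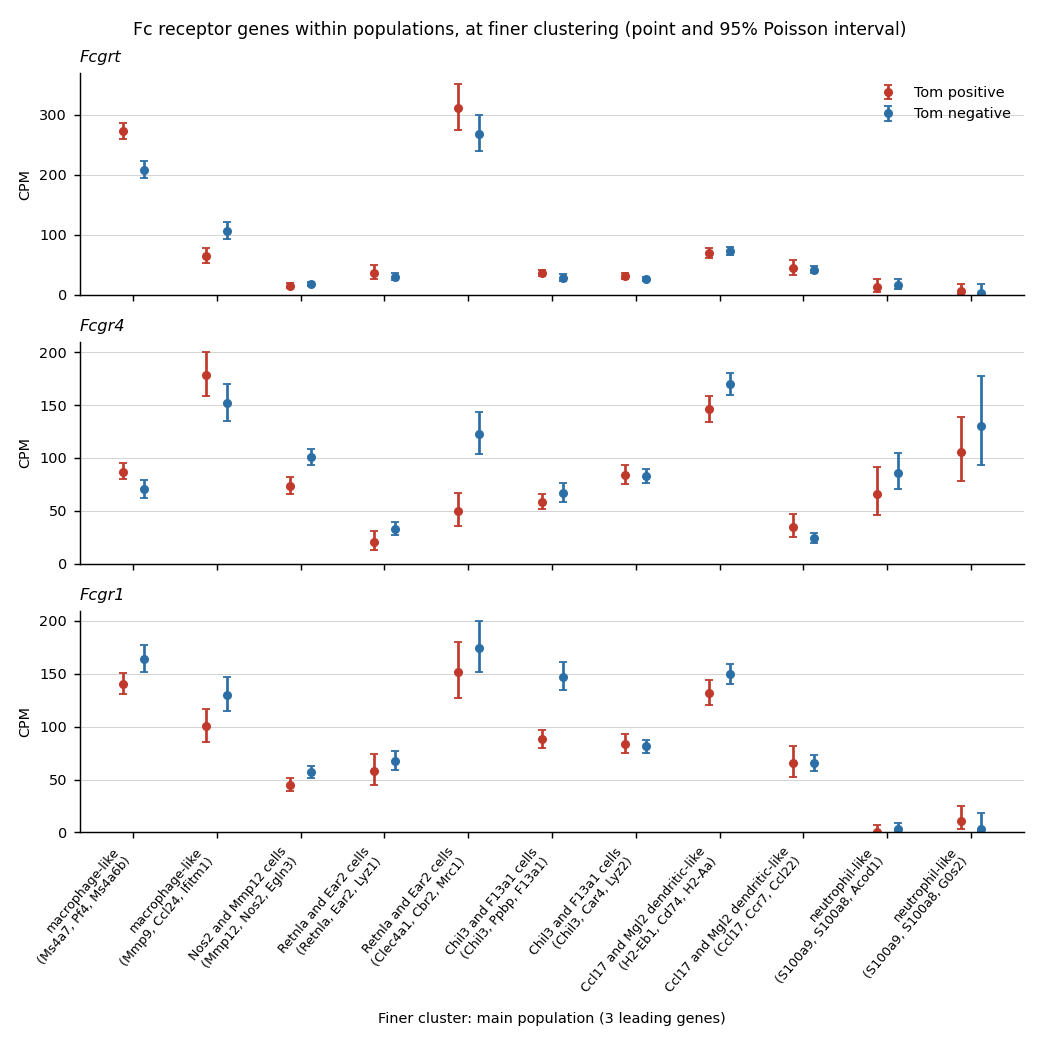
Levels of Fcgrt, Fcgr4 and Fcgr1 (CPM) in the 11 finer phagocyte and neutrophil clusters, named by their main population and leading genes, with both libraries as separate points and 95% Poisson intervals as bars. Fcgrt is at 312 and 268 CPM in the Clec4a1, Cbr2 and Mrc1 cluster, 36.3 and 30.4 CPM in the Retnla, Ear2 and Lyz1 cluster, and 6.32 and 3.26 CPM in the S100a9, S100a8 and G0s2 cluster (Tom positive and Tom negative).

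Over the 11 finer clusters 64 member values were measured and 6 were past 1.5-fold, 1 higher and 5 lower in Tom positive. Beside the Fcgrt and Fcgr4 values above, Fcgr1 was lower in the cluster led by Chil3, Ppbp and F13a1, at 88.2 and 147 CPM (ratio 0.600, 0.526 to 0.684, where 8.77% of genes passed in either direction). In the other monocyte-type cluster, led by Chil3 and Car4, it stood at 83.3 and 81.2 CPM. Fcgr2b in the neutrophil cluster led by S100a9, S100a8 and G0s2 stood at 137 and 228 CPM (ratio 0.600, 0.422 to 0.853), where 52.6% of genes passed. The single higher value was Fcgr1 in that same cluster, from 5 and 1 UMIs. The share of genes past 1.5-fold was 15.9% in the Mmp9 and Ccl24 cluster, 20.9% in the Clec4a1 cluster and 14.4% in the Retnla, Ear2 and Lyz1 cluster. In the 6 clusters with no member past it, the share of genes was 5.07% (Ms4a7 and Pf4), 5.13% (Mmp12 and Nos2), 3.46% (Chil3 and Car4), 4.3% (H2-Eb1 and Cd74), 14.5% (Ccl17 and Ccr7) and 38.1% (S100a9, S100a8 and Acod1).

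Genes with patterns most like the members were ranked by Pearson's r of log2(CPM + 1) over 27 groups, each a population in 1 library with 50 cells or more, among 7348 genes. The groups share libraries and clusters, so r is a description. Fcer1g was most like Tyrobp (r = 0.988), the adaptor of many myeloid receptors, and Ncf4 (0.982), a subunit of the phagocyte oxidase. Fcgr3 was most like Clec4n (0.987), a lectin receptor that signals through the FcR gamma chain, the chemokine Ccl6 (0.984) and Fcer1g (0.981). Fcgr4 was most like Sirpb1c (0.977) and Cd300c2 (0.970), and Fcgr2b like the collagen receptor Lair1 (0.974) and the transcription factor Tfec (0.970). For Fcgr1 the genes of like pattern included Fcgr2b (0.962) and Lair1 (0.959). Among the members, Fcgr1 thus ran closest to the inhibitory receptor, whereas Fcgr4 ran closest to Fcgr3 (0.959).

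Over these groups, which include stromal and endothelial cells, Fcgrt ran against the other IgG receptors. Its r lay between -0.20 and -0.49 to Fcgr1, Fcgr2b, Fcgr3, Fcgr4 and Fcer1g. This does not describe the phagocytes on their own. Among those populations Fcgrt and Fcgr1 were highest in macrophage-like cells, and Fcgrt, Fcgr1 and Fcgr2b lowest in Nos2 and Mmp12 cells, in both libraries. Fcgr3 and Fcgr4 were instead lowest in Retnla and Ear2 cells. Over all groups Fcgrt was most like Itm2b (0.879), Psd3 (0.861) and Chd9 (0.857), and like the selenium carrier Selenop (0.849). For Fcer1a the closest gene by this measure was Cd163 (0.609), a value that rests on levels of at most 1.65 CPM because the mast-like cells were too few to enter.

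Genes that carry the receptors' signals were read from fixed lists. Of 20 genes downstream of activating receptors, 18 were measured in each of the 5 phagocyte populations and 0 of them passed 1.5-fold, with median log2 differences between -0.15 and 0.03. Over all measured genes the share past 1.5-fold ran from 2.68% to 10.3% in these populations, so a count of 0 is near it and is no result about the list. In macrophage-like cells the extremes were the kinases Fgr (46.5 and 62.7 CPM, ratio 0.742) and Fyn (46.9 and 56.2 CPM) at the low end and the exchange factor Vav3 (286 and 241 CPM, ratio 1.19) at the high end. Of 9 inhibitory signalling genes 0 passed 1.5-fold in macrophage-like cells, near the 3.99% of all measured genes. The phosphatase Inpp5d, which acts below Fcgr2b, stood at 428 and 419 CPM there. The only one past it in the phagocytes was the ubiquitin ligase Cblb in the Chil3 and F13a1 cells, at 160 and 101 CPM (ratio 1.58). It was 1 of 8 measured there, where 3.34% of all measured genes passed.

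In neutrophil-like cells 9 of 17 measured downstream genes were past 1.5-fold higher, against 39.0% of all measured genes. For so few genes this count is near that share and is no result about the list. The median log2 difference of the downstream genes was 0.60, against 0.40 for all measured genes. The kinase subunit Pik3cd (39.6 and 14.5 CPM, ratio 2.72) and the phospholipase Plcg2 (81.2 and 31.1 CPM, ratio 2.61) were the highest. Of 7 measured inhibitory genes 3 were past 1.5-fold higher, which is near the 39.0% of all measured genes and is no result about the list. Among them were the phosphatases Ptpn6 (146 and 74.0 CPM) and Inpp5d (406 and 223 CPM), and the median of the 7 was 0.57. The receptors in the same cells, as given above, had a median of -0.08.

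A fixed list of 10 lectin and other receptors was drawn up for use of the FcR gamma chain, and 9 were matched in the files. It also holds Pirb and Osmr, and pairing with the chain was not tested, so its counts are not of gamma-chain receptors alone. In macrophage-like cells 1 of 7 measured passed 1.5-fold, the lectin Clec4e at 26.0 and 44.3 CPM (ratio 0.588, 0.490 to 0.704), where 3.99% of all measured genes did. In Nos2 and Mmp12 cells 1 of 6 did, the interleukin receptor chain Il3ra at 10.3 and 6.65 CPM, where 6.56% of genes did. Of 7 measured in neutrophil-like cells 0 passed, where 44.5% of genes did, with Clec4e at 1144 and 1548 CPM. The adaptor Tyrobp stood at 1432 and 1363 CPM in macrophage-like and 2129 and 2349 CPM in neutrophil-like cells, and neither it nor Hcst passed in any of these populations. The transcription factor PU.1, encoded by Spi1, stood at 315 and 300 CPM in macrophage-like cells. In the 5 phagocyte populations 0 of the measured myeloid transcription factors passed, where 2.68% to 10.3% of all measured genes did, so this count is near the share.

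Receptor relatives and ligands were few. Fcrls, an Fc receptor-like scavenger receptor, stood at 178 and 189 CPM in macrophage-like and 233 and 210 CPM in Retnla and Ear2 cells, and at 4.37 and 6.35 CPM in Nos2 and Mmp12 cells. Fcrlb, an intracellular relative, was lower in Tom positive macrophage-like cells, at 7.87 and 14.4 CPM (ratio 0.548), as 1 of 2 measured genes of its list where 3.99% of all measured genes passed. In the Chil3 and F13a1 cells it was the 1 measured gene of the list and was lower too, at 11.3 and 17.6 CPM (ratio 0.643), where 3.34% of genes passed. Of the antibody chains only Ighm, Igkc and Jchain were measured over all kept cells, and all 3 were past 1.5-fold lower in Tom positive: Igkc at 90.8 and 261 CPM, Ighm at 20.6 and 53.1 CPM and Jchain at 3.81 and 12.1 CPM. Plasma-like barcodes numbered 26 and 91, and all of them were doubted, so no weight is placed on this difference.

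Limits of the gene models bear on 4 members. Within the last 500 bases of their transcripts, 94.9% of the 31-base words of Fcgr2b and 99.5% of those of Fcgr3 were found in no other gene, and the shared words of each were found in the other. For Fcgr4 96.6% were its own, and for the other 4 members 100%. On the same strand Fcgr3 overlaps Mir6546 and Fcgr4 overlaps Gm26110. Fcgr2b overlaps Gm38204 and Fcgrt overlaps Gm45669 on the opposite strand, and whether counting used strand is not given in the sources used here. Receptor protein on the cell surface was not measured.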

How the data were processed

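Each of 2 sorted cell groups gave 1 library (10x Genomics 3′ chemistry, per the labels' protocols). The deposited values are whole-number UMI counts per gene and cell barcode, and the submitters' processing notes name Cell Ranger 7.0.1 and the mm10 build; strand and intron settings are not given in the sources used here. From 7568 Tom positive and 13604 Tom negative barcodes, cells with at least 500 genes, 1000 UMIs and at most 10% mitochondrial UMIs were kept (4365 and 6677), less 63 and 97 doublets (Scrublet); they held 91.4% and 91.7% of all UMIs. Counts were clustered with scanpy 1.11.5 (2000 variable genes, 30 components, 15 neighbours, Leiden at resolution 1, 22 clusters) in Python 3.11.15. A cluster was named from at least 3 markers at 50 CPM or more. UMIs were summed per population and library. Intervals are exact Poisson, binomial or conditional 95% intervals from SciPy 1.17.1; a count of 0 takes a floor of 3 counts. Log2 differences used a pseudocount of 1 CPM. Shares were also taken after thinning to 2000 UMIs. The ratio script was tested on simulated data. All members were named; the 5 genes most like each member, and the extremes of fixed lists, were eligible for naming. The members and lists were chosen with earlier results of these data known. Alternatives were other filters, doublets kept, doubted barcodes left out, Leiden resolution 2, TMM factors, means over cells, thinning, other pseudocounts and a lower level limit. Protein sequences are not used here. Some genes that the naming rule selects are not reported here.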

Additional observations from a re-analysis of the deposited data

How the results depend on the processing

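Of 462 alternative values of 37 log2 differences, 407 moved by less than their counting interval, 55 moved further, none reversed a called value, and 29 lay past 1.5-fold. Reversal was counted only for the called values, Fcgr4 in Retnla and Ear2 cells and Fcer1g in blood endothelial-like cells. Changes of sign in the others were not counted. Thinning to 2000 UMIs alone moved 22 of the 37 beyond their interval. The count of members past 1.5-fold in macrophage-like cells was 1, against 0, with means over cells and with cells thinned to 2000 UMIs (Fcgrt in both). For Nos2 and Mmp12 cells it was 2, against 0, with thinning. For Retnla and Ear2 cells it was 2, against 1, at Leiden resolution 2, where Fcgrt (ratio 1.69) joined Fcgr4 (0.597). Within the finer clusters pooled there, Fcgrt had ratios of 1.16 and 1.19. With thinning the member past 1.5-fold was Fcgrt (1.61) in place of Fcgr4. For neutrophil-like cells it was 1, against 0, with stricter depth minimums, with TMM factors and with thinning (Fcgrt each time), and in the smaller neutrophil cluster alone (Fcgr1). For blood endothelial-like cells it was 3, against 1, at Leiden resolution 2 and with the shallow endothelial barcodes added, and 2 with means over cells, with thinning and with members at 1 CPM or more counted. The share of all genes past 1.5-fold was not computed under these alternatives, so these counts have no background beside them. In each case the cause was not tested. Leaving out the doubted barcodes moved none of the 37 differences beyond its interval. At most 1 Tom positive and 12 Tom negative cells were doubted in any population behind these differences. Little could therefore move, and this check does not show what shared barcodes did elsewhere. The separate neutrophil clusters, the shallow endothelial barcodes and a pooled macrophage set were chosen after seeing the data. No paired analysis was possible because each group holds 1 library, so no replicate could be left out either. Depth limits Fcgr1 and Fcgrt in neutrophil-like cells and every gene in the single Tom negative mast-like cell.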
